A study of Mus musculus with 12 samples.

Results

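Among the windows of open chromatin measured in mouse embryonic fibroblasts (MEFs), 467 lay at GC-rich promoters and were less accessible when Prox1 was overexpressed together with the 4in1 reprogramming factors than when GFP was. They were selected by 4 conditions. The window lay within 1 kb of a protein-coding transcription start site, its GC content was at least 60%, its log2 mean normalized read count with 4in1 and GFP (named Conc_4in1_GFP in the deposited table) was at least 7, which is 128 reads, and the value with 4in1 and Prox1 minus the value with 4in1 and GFP was -0.6 or lower. On a linear scale the last condition leaves at most 0.66 of the reads. Of 176680 windows in all, 16589 lay within 1 kb of such a start site, 11089 of these were GC-rich, and 10380 of those also passed the read limit. These 10380 are called strong GC-rich promoter windows below, and the 467 selected windows are 4.50% of them. The nearest start sites of the 467 belonged to 461 genes, and 481 genes of the 10673 with a strong GC-rich promoter window had at least 1 selected window in reach.

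All cells were primary wild-type C57BL/6N MEFs from embryonic day 13.5, transduced with lentivirus and collected after 2 days of doxycycline at 2 ug/ml, and every group carried rtTA, the doxycycline-dependent activator that switches on tetO transgenes. The 12 libraries formed 4 groups of 3, namely rtTA alone (MEF), rtTA with Prox1 (Prox1_OE), rtTA with 4in1 and GFP (4in1_GFP_OE), and rtTA with 4in1 and Prox1 (4in1_Prox1_OE), where Prox1 is a FLAG-tagged mouse cDNA and 4in1 is a lentiviral set of reprogramming factors, not listed in the labels, that turns fibroblasts into induced hepatocytes. Values were at hand for the last pair of groups only, each as the authors' mean over 3 libraries, so the first pair is not analysed here. No spread between replicates could be given, no test was run, and the selected windows are described rather than tested because the difference itself chose them. Each library was made from many cells, and in such bulk samples a smaller share of open cells and less open chromatin per cell cannot be told apart.

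ATAC-seq (assay for transposase-accessible chromatin with sequencing) counts the sites where a transposase can cut, and active promoters are usually among the most open sites of a genome. Most promoters of broadly expressed genes lie in CpG islands, stretches where the CG dinucleotide is kept at the frequency that the base composition predicts because it is protected from DNA methylation. GC-rich promoters that lack CpG exist as well, and are more often found at genes used in particular tissues. Prox1 is a homeodomain transcription factor of the liver, the lymphatic endothelium and the nervous system that can act as a repressor.

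The sequences of the 6 selected windows with the lowest differences are shown first, because they carry the feature that most set the selected windows apart, namely few CpG in a GC-rich context. They were read from the mm10 genome (RefSeq, GRCm38.p6) and are written in the direction of transcription of the nearest gene, with each CpG in capitals.
Iqsec2, chrX:152178926-152179126, strand +: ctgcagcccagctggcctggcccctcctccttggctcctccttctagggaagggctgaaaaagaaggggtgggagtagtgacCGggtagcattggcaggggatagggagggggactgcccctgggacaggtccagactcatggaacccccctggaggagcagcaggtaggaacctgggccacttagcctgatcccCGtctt
Mab21l3, chr3:101836163-101836363, strand -: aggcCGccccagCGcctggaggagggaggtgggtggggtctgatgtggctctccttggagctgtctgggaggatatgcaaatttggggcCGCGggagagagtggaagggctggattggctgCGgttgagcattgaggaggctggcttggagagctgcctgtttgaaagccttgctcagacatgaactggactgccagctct
Plcd1, chr9:119088481-119088681, strand -: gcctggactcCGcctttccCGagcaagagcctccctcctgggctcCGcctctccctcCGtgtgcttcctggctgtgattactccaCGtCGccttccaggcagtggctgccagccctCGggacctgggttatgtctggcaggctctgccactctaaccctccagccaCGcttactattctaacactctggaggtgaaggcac
Palm3, chr8:84021523-84021723, strand +: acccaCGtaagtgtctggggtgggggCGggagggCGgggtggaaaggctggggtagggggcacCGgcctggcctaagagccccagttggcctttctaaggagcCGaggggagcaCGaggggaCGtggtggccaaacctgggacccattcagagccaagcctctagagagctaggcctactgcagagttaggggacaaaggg
Ergic1, chr17:26621244-26621444, strand +: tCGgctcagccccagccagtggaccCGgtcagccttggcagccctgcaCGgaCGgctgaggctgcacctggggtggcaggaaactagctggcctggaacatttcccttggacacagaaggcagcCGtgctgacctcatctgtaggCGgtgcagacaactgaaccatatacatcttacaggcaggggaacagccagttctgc
Sh3tc1, chr5:35740060-35740260, strand -: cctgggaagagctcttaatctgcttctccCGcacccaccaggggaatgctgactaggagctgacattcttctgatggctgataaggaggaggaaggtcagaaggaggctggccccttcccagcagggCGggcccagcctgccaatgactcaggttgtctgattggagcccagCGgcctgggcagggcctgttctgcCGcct
These windows of 201 bases held 2, 5, 8, 7, 6 and 4 CpG in that order, against a median of 21 in the strong GC-rich promoter windows that were not selected. A pair of windows at Psme3, a proteasome activator, and Psmg3, a proteasome assembly chaperone, is shown beside them, as the windows nearest to a difference of 0 among those whose closest gene codes for a ribosomal protein or a proteasome factor.
Psme3, chr11:101316116-101316316, strand +: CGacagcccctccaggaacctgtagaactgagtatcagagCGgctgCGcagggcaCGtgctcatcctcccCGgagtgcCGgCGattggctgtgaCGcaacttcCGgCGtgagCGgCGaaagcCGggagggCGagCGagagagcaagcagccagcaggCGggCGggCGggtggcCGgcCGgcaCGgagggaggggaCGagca
Psmg3, chr5:139826794-139826994, strand -: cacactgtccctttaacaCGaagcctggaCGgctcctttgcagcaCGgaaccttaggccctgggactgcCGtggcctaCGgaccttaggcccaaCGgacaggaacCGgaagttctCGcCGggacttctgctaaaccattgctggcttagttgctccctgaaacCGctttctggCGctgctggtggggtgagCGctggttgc
Psme3 held 22 CpG and Psmg3 held 12. The window at Psme3 had 527 reads with GFP and 503 with Prox1, and that at Psmg3 had 430 and 408, so both differences were -0.07.

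The lowest difference was at Iqsec2, an exchange factor for Arf GTPases on the X chromosome. Its window, at 1 of its 3 annotated start sites, had 261 normalized reads with 4in1 and GFP and 86.8 with 4in1 and Prox1. That is a difference of -1.59 on the log2 scale. The window in an intron of Mab21l3, a member of the Mab21-like family, had 462 reads with GFP and 155 with Prox1, a difference of -1.58. That of Plcd1, a phospholipase C, had 533 and 190.0, a difference of -1.49. In these windows about 0.33 to 0.36 of the reads were left. Palm3, a paralemmin, had 202 and 74.1 reads (-1.45), and Ergic1, a protein of the endoplasmic reticulum to Golgi compartment, had 379 and 154 (-1.30). Sh3tc1 had 304 and 126 (-1.27). These values are for single windows and not for all promoters of a gene. Iqsec2, Plcd1 and Ergic1 each had another strong GC-rich promoter window, which was at -0.06, -0.29 and -0.10. Of the other 6 among the 12 lowest windows, Adgrg1, an adhesion receptor, had 606 and 257 reads (-1.24), Ldhb, a lactate dehydrogenase subunit, 607 and 261 (-1.21), and Rnd1 604 and 263 (-1.20). Osbpl7, an oxysterol-binding protein, had 398 and 174 reads (-1.19), Ddr1, a collagen-binding receptor tyrosine kinase, 543 and 239 (-1.18), and Dysf, the membrane repair protein dysferlin, 439 and 195 (-1.17). All 12 windows lay at the low end of the GC range, between 60.2% and 64.7%.

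Over the 467 windows, the difference ran from -1.59 to -0.60 with a median of -0.73, so a typical selected window kept 0.60 of its reads. Its level went from a median of 484 reads with GFP to 282 with Prox1. Only 50 windows were at -1 or lower, and 191 lay between -0.7 and the limit of -0.6, so the selection holds many windows that only just passed it. The 3 members nearest to the limit were at Tnks1bp1, Bcat1 and Eva1a, all at -0.60, and the 3 windows next to them that were not selected, at Cpz, Edn2 and Myl9, were at -0.60 as well. A further 295 strong GC-rich promoter windows lay between -0.6 and -0.5. At the read limit there was a wider gap, from Ttbk1 with 134 reads with GFP inside it to Srpx with 114 outside. At the GC limit, 24 members shared the lowest value of 60.2%, among them those at Ppp1r42, Ugt1a7c and Ulbp1. The nearest below it were at Ptger1, C1qtnf5 and Bcl9l, each with 59.7%.

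**Figure D1:**
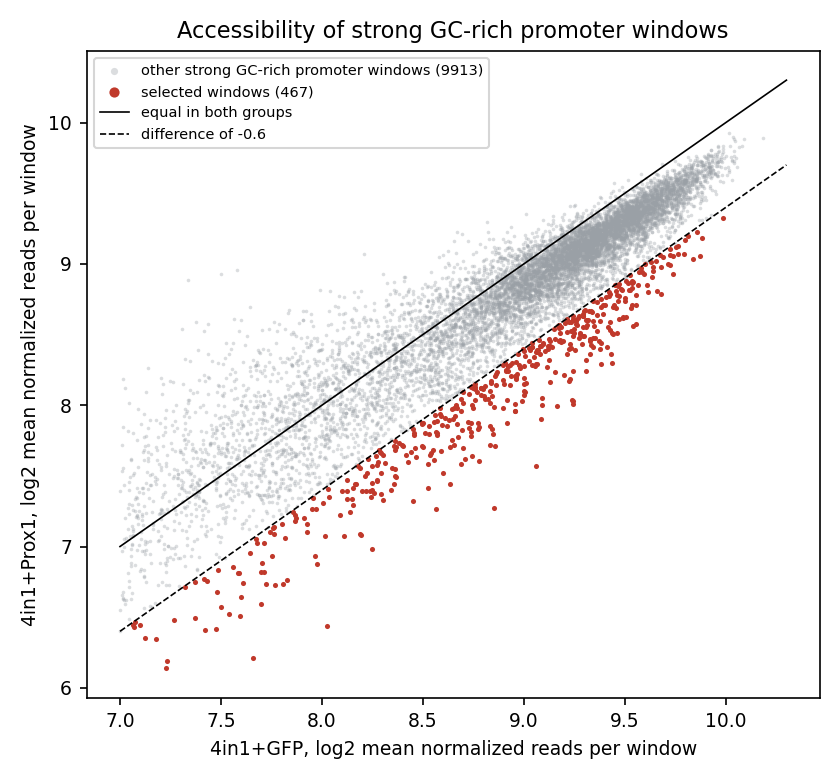
Authors' group means of the 10380 strong GC-rich promoter windows, as log2 mean normalized reads per window, with 4in1 and GFP on the x axis and with 4in1 and Prox1 on the y axis. Red points are the 467 selected windows, grey points the other 9913, the solid line marks equal values and the dashed line the limit of -0.6. Most grey points lie a little below the solid line, with a median difference of -0.17.

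Lower values were the rule in this comparison. Of all windows, 41.8% were at -0.6 or lower and the median difference was -0.42. Of the windows away from every annotated start site, 45.1% were, with a median of -0.49. Those of them that passed the read limit of 128 had a median of -0.81. Of the windows within 1 kb of a protein-coding start site, 12.6% were at -0.6 or lower, with a median of -0.20. Strong GC-rich promoters, the only 1 of these classes defined with a read limit, had the smallest share. Of them, 4.50% were at -0.6 or lower, with a median of -0.18, and 1.24% (129 windows) were at 0.6 or higher. The selected windows are the low tail of a class that kept most of its reads, although 8662 of the 10380 windows had a difference below 0. Their level with Prox1 still reached 640 reads at the most accessible, and 41 of the 467 ended below the read limit of 128 that all had passed with GFP. If each difference were taken relative to the median of all windows, only 45 of the 467 would remain at -0.6 or lower.

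The selected windows with the most reads in the GFP group were not among the lowest. Gfod1, an oxidoreductase domain protein, had 1013 reads with GFP and 639.9 with Prox1 (-0.66), and Fosl2, an AP-1 transcription factor, had 944 and 580.0 (-0.70). The windows at Eml6, Mlxip and Kbtbd7 had between 899 and 929 reads with GFP and differences of -0.63, -0.80 and -0.61. Each of these windows was still more accessible with Prox1 than the median strong GC-rich promoter window, which had 492 reads in that group.

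What most set the selected windows apart, beyond what the rule used, was their CpG content. The CpG observed/expected ratio compares the CpG count with that predicted from the C and G content of the window. Its median was 0.66 in the selected windows and 0.88 in the other strong GC-rich promoter windows, and the median CpG count was 14 against 21. A ratio under 0.6, which lies outside the common definition of a CpG island, was found in 37.3% of the selected windows (174) and in 8.34% of the others (827). Fewer than 10 CpG were found in 110 of the 467 selected windows and in 336 of the 9913 others. Read the other way, the share of windows selected went down in every step of the ratio. It was 35.3% of the 68 windows with a ratio under 0.2, 27.1% of 192 between 0.2 and 0.4, 13.2% of 741 between 0.4 and 0.6 and 6.43% of 2568 between 0.6 and 0.8. In CpG-rich windows it was 2.49% of 4255 between 0.8 and 1, and 0.86% of 2556 with a ratio of 1 or more, against 4.50% of all. The median difference moved with it, from -0.42 in the lowest class to -0.16 in the highest.

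The share also went down with GC content, for which the rule had already set a floor. Of the windows with 60 to 65% GC, 8.83% were selected, and of those with 80% or more, 0.45% (3 of 665). The order by CpG ratio was also found within the 3 GC classes below 75%. Between 60 and 65% GC, 21.3% of the 600 windows with a ratio under 0.6 were selected, 8.63% of the 811 between 0.6 and 0.8, and 2.37% of the 1138 at 0.8 or more. Between 65 and 70% GC, the shares were 12.3%, 6.21% and 2.65%, and between 70 and 75% they were 9.89%, 4.47% and 1.78%. At 75% GC or more the order did not hold, with 0 of 9 windows selected under a ratio of 0.6, 9 of 197 (4.57%) between 0.6 and 0.8 and 23 of 2119 (1.09%) at 0.8 or more. The median difference followed the ratio below 70% GC only, and at 75% or more it was -0.08, -0.09 and -0.13 in these classes. The share varied less with the level in the GFP group, where it was lowest in the most accessible class (2.54% at a log2 value of 9.5 or more) and highest between 8 and 8.5 (7.31%).

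**Figure D2:**
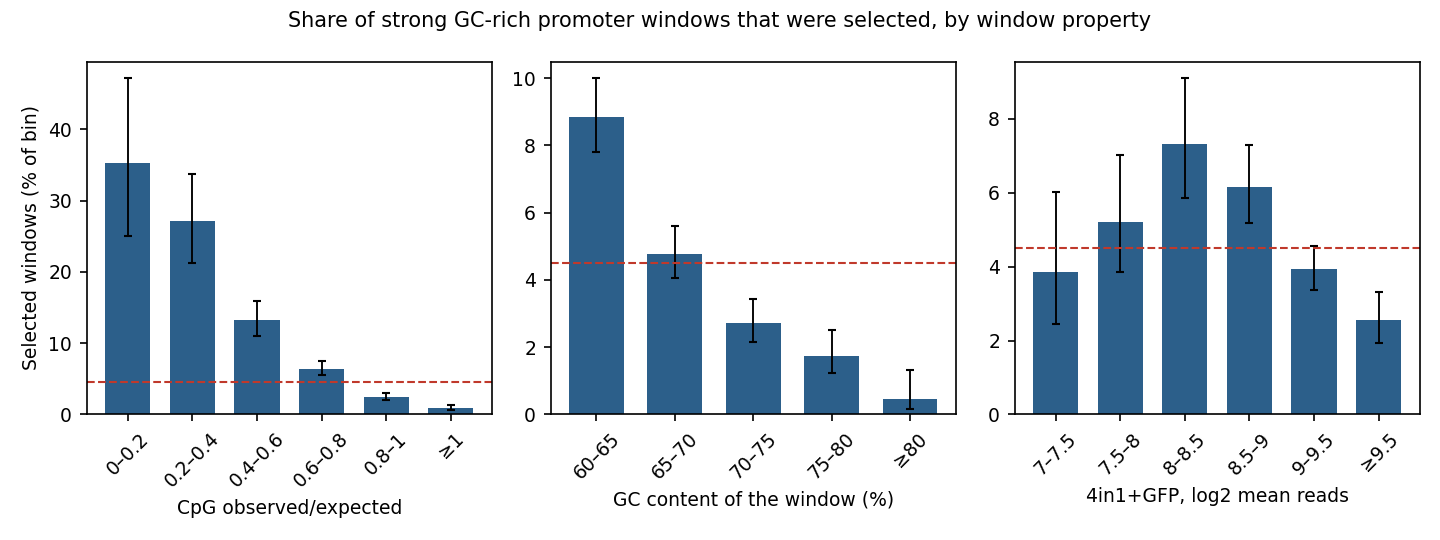
Share of the strong GC-rich promoter windows that were selected (y axes, percent of the windows in each class; the 3 panels have their own scales), by CpG observed/expected ratio, GC content and log2 mean reads with 4in1 and GFP. Bars carry 95% Wilson intervals for counting error only, and the dashed line is the share over all 10380 windows, 4.50%. The share goes down from 35.3% to 0.86% along the CpG ratio.

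Their place relative to the gene differed less. The centre of the window lay within 100 bases of the nearest start site in 61.9% of the selected windows and in 66.8% of the others. By the centre of the window, 168 of the 467 lay upstream of every protein-coding transcript, 177 in an untranslated exon, 96 in an intron and 26 in a coding exon. An intron was more frequent than in the other windows (20.6% against 12.9%), and upstream sequence less frequent (168 of 467, against 46.5%). The nearest start site was the first of its gene in 63.8% of the selected windows and in 76.2% of the others. A second strong GC-rich promoter window of the same gene was present for 17.6% of the selected windows and 9.56% of the others. The gap in introns was smaller among windows of like CpG content. With a CpG ratio under 0.6, introns held 29.9% of the selected and 27.7% of the others. Promoters shared by genes that point away from each other were less frequent among the selected windows. Only 11 of 467 (2.36%) had another protein-coding start site on the opposite strand within 1000 bases upstream, against 6.27% of the others.

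In 6 genes there were 2 selected windows each. Rnd3 had 726 reads with GFP and 396 with Prox1 just upstream of its start site (-0.88), and 329.8 and 180.4 in an intron (-0.87). Cnn1, the smooth muscle actin-binding protein calponin, had 178 and 85.2 reads in an intron (-1.06) and 296 and 180.5 just upstream of its first start site (-0.72). Ltbp3, which binds latent TGF-beta, had 350.2 and 159.9 reads (-1.13) in a window with 5 CpG, and 673 and 401 (-0.75) in one with 21. Cdk2ap1, which binds a cyclin-dependent kinase, had -0.93 in a window with 3 CpG and -0.71 in one with 11. Gabbr1, a GABA-B receptor subunit, had -0.77 with 15 CpG and -0.62 with 23. Rnf144b, a ubiquitin ligase, had -0.82 with 18 CpG and -0.63 with 9. Within these pairs, then, the lower window had fewer CpG at Ltbp3, Cdk2ap1 and Gabbr1, and more at Rnd3 (17 against 11), Cnn1 (16 against 5) and Rnf144b.

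Beyond the selected windows, 133 of the 461 nearest genes had other promoter windows within 1 kb of a start site, 207 in all. Of these, 50 (24.2%) were at -0.6 or lower, against 12.6% of all windows within 1 kb of a protein-coding start site. Most were unlike the strong GC-rich windows, as 110 of the 207 had under 60% GC and 44 had fewer reads with GFP than the limit, so the share is not one for like windows. A further 89 were strong GC-rich promoter windows that were not selected, so the rule itself had placed them above -0.6. All 50 thus came from outside that class, while the 12.6% has no such exclusion, and nothing is read from the gap. Further windows within the gene and away from every start site were found for 362 of the genes. Of these 3670 windows, 1700 (46.3%) were at -0.6 or lower, near the 44.7% found in the genes with no selected window, so the shares in gene bodies were close. Within 50 kb of a selected window, the windows away from start sites had a median difference of -0.47, taken over the median of each neighbourhood, against -0.37 around the other strong GC-rich promoter windows. At Runx1, promoter windows of 1 gene differed. Its selected window had 477 reads with GFP and 312 with Prox1 (-0.61), while the most accessible promoter window of the gene was at -0.31.

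Prox1 itself was among the selected genes. The window at its start site, in the first untranslated exon, is printed because Prox1 was the gene overexpressed, and was chosen after its value was seen. CpG are in capitals.
Prox1, chr1:190170546-190170746, strand -: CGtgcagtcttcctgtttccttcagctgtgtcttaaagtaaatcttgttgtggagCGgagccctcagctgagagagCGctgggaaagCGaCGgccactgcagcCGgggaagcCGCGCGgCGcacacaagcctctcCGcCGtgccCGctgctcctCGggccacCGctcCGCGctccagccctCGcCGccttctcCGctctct
This window had 455 reads with GFP and 211 with Prox1, a difference of -1.11, and with 20 CpG and a ratio of 0.94 it is one of the CpG-rich members. A second GC-rich promoter window of the gene had 209.7 and 187 reads (-0.17). The opposite was seen over the coding exons, which the transgene carries too. A window with 201 coding bases went from 16.1 to 6847 reads, one with 189 from 13.8 to 2078, and one with 183 from 3.42 to 1632. Reads of the lentiviral cDNA and of the gene cannot be told apart there, and these windows check the labels of the groups. The selected window holds no coding base.

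The genes were grouped by 37 lists of gene families, pathways and cell type markers, which hold 118 of the 481 genes with a selected window. The share of genes with a selected window was 4.51% over all 10673 genes, and each list is set beside that value. Matrix genes and fibroblast identity genes had the largest shares among the lists with 15 or more genes.

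Of 104 collagen, laminin and other matrix genes with a strong GC-rich promoter window, 25 had a selected window, and the median difference over their windows was -0.30, against -0.18 over all strong GC-rich promoter windows. Thbs1, the matricellular protein thrombospondin 1, had 689.8 reads with GFP and 329 with Prox1 (-1.07). Col6a5, a chain of collagen VI, had 172 and 85.1 (-1.01), and Col12a1, which lies on collagen fibrils, had 743 and 378 (-0.98). Emilin1, an elastic fibre protein, had 667 and 348 (-0.94). The collagen IV pair Col4a1 and Col4a2, chains of basement membranes, share a promoter window, which had 649.9 and 388 reads (-0.74). The list also held 5 of the Adamts proteases that cut matrix proteins, Adamts1, Adamts2, Adamts7, Adamts9 and Adamts12. Not every matrix gene followed: Adamts20 had 395 reads with GFP and 480.2 with Prox1 (0.28), Col8a2 173 and 271 (0.65), and Col11a2 161 and 263 (0.70). The windows of the list had a median CpG ratio of 0.78. Among its 76 windows with a ratio of 0.6 or more, 15 (19.7%) were selected, against 3.12% of all windows in that range.

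Of 40 fibroblast identity genes, 10 (25.0%) had a selected window, with a median difference of -0.42 over the windows of the list, and 3 of the 10 were also in the matrix list. Cd44, the hyaluronan receptor, had 668 reads with GFP and 313 with Prox1 (-1.09), and Axl, a receptor tyrosine kinase, had 545 and 256 (-1.09). Sparc, a matricellular glycoprotein, had 649 and 341 (-0.93). Fstl1, a secreted follistatin-like protein, had 534 and 313 (-0.77). Nearer to the limit were Osr2 at -0.69, Vim (the intermediate filament vimentin) and the crosslinking enzyme Loxl1 both at -0.64, the receptor Tgfbr2 at -0.63, the protease inhibitor Timp1 at -0.62 and Runx1 at -0.61. Other genes of the list were not lower: Six2 had 455 and 471 reads (0.05), Thy1 156 and 179 (0.20) and Heyl 184 and 323 (0.81). With the windows of CpG ratio under 0.6 left out, 4 of 30 windows of this list were selected (13.3%).

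The label of the cells could be set beside these promoters. Of 57 fibroblast identity genes, 56 had a promoter window of any GC content, with a median of 483 reads with GFP in the highest window of each gene. Of 15 haematopoietic markers 4 had one, of 65 hepatocyte genes 26, of 15 endothelial markers 11, of 16 epithelial markers 12, of 16 neuronal markers 13, of 17 muscle markers 13 and of 17 adipocyte markers 14. Alb and Afp of hepatocytes and Ptprc of blood cells had none. Markers of muscle had a median of 109.7 reads, of endothelium 241 and of epithelium 189.8, below the fibroblast list. Haematopoietic (301 reads, 4 genes) and neuronal (287) markers were below it too, and adipocyte markers (496) were not. Some markers of other cell types were lower with Prox1 as well. The median difference over the highest promoter window of each gene was -0.46 for the fibroblast list (16 of 56 at -0.6 or lower), -0.53 for the endothelial list (5 of 11) and -0.97 for the 4 haematopoietic genes (2 of 4). The lowest of these 2 lists were Pecam1 of endothelium, with a difference of -1.59, and Csf1r of macrophages, with 274 reads with GFP and 84.1 with Prox1 (-1.71). Other members were higher with Prox1, namely Esam (0.83), Cldn5 (0.19) and Sox17 (0.17) of the endothelial list and Coro1a (0.04) of the haematopoietic list. The medians of the other lists ran from -0.23 (adipocyte) to -0.01 (muscle), with 4 of 13 muscle, 3 of 12 epithelial, 5 of 26 hepatocyte, 2 of 14 adipocyte and 1 of 13 neuronal genes at -0.6 or lower. These counts take only the highest window of each gene, while the 12.6% they stand beside is over all promoter windows. The muscle share was as large as that of the fibroblast list. However, 3 of the 13 muscle genes were at 0.6 or higher, against 1 of 56 in the fibroblast list. Of the epithelial list 3 were, of the endothelial and hepatocyte lists 1 each, and of the haematopoietic, adipocyte and neuronal lists 0. The part of other cell types in the differences at fibroblast genes was not tested. Of the hepatocyte list, 11 genes had a strong GC-rich promoter window and 0 had a selected one, a number of genes too small to read against the background of 4.51%.

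In the TGF-beta and BMP list, 6 of 48 genes (12.5%) had a selected window, namely Ltbp3, Fstl1, the type I receptor Bmpr1b (547 and 347 reads, -0.65), the signal transducer Smad3 (869 and 559.9, -0.63), the type II receptor Tgfbr2 (864 and 557, -0.63) and the target and inhibitor of differentiation Id3 (759 and 493, -0.62). The list thus had a ligand-binding protein, receptors, a transducer and a target among its lower members, while the lowest windows of the receptor Acvr2b (0.13) and the corepressor Tgif2 (0.10) were at 0.1 or above. Of the 57 windows of the list, 49 were below 0 and 1 was at 0.6 or higher. At a stricter limit of -0.8 the share of its genes was 2.08%, near the 1.55% of all genes at that limit. Of 55 genes of receptor tyrosine kinase signalling, 7 had a selected window. Besides Ddr1 and Axl these were the VEGF receptor Flt1 (430.2 and 253 reads, -0.77), the EGF receptor family members Egfr (406 and 255, -0.67) and Erbb2 (742 and 455, -0.71), the EGF-family ligand Hbegf (-0.74), and Fgfr2, whose window lay nearer to Ctbp2. Fgfr2 was counted only because an annotated start site of the gene was in reach of that window. It drops out of the list's count when each window stands for its nearest gene only. Fgfr3 was at 0.64. In the actin and smooth muscle list 6 of 52 genes (11.5%) had one, with Cnn1, the tropomyosins Tpm1 (853 and 488 reads, -0.81) and Tpm2 (659 and 399, -0.72) and the formin Diaph2 (379 and 224, -0.76) lowest. The opposite end of that list was Myh14, a nonmuscle myosin, with 181 and 487 reads (1.43).

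Transcription factor families differed in their counts. Of 109 homeobox genes, 13 (11.9%) had a selected window, yet the median difference over the windows of the list was -0.10, less negative than over all strong GC-rich promoter windows, so this list held both ends of the range. Prox1 was the lowest. Lhx9, a LIM homeobox factor of gonad and limb, had 484 reads with GFP and 234 with Prox1 (-1.05), and Irx5 had 695 and 364 (-0.93). At the other end, Barhl2 had 189 and 347 reads (0.88), Hoxc10 178 and 274 (0.62) and Barhl1 159 and 243 (0.61). Of 9 T-box genes 2 were selected, Tbx20 (-0.67) and Tbx18 (-0.65), factors of heart and mesenchyme. The basic helix-loop-helix list had 2 of 49, Id3 and Myc, the growth-promoting oncogene, whose window had 643 and 329.8 reads (-0.96). The KLF and SP factors had 0 of 21, and the Zfp zinc finger genes 5 of 194 (2.58%).

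No selected window was found for 46 ribosomal protein genes, 61 genes of the respiratory chain and ATP synthase, 27 proteasome genes or 13 histone genes. With a background of 4.51%, few genes of lists of these sizes would be selected in any case, so nothing is read from these zeros, nor from that of the KLF and SP list. Their windows were nevertheless slightly lower with Prox1, with median differences of -0.18, -0.19, -0.23 and -0.21, near the -0.18 of all strong GC-rich promoter windows. The median CpG ratio of these lists lay between 0.89 and 1.02. Translation factors, also used by every cell, had 3 of 51 (5.88%), namely Eif1ax (379.9 and 224 reads, -0.76), Eif4ebp1 (581 and 349, -0.74) and Eif3l (617 and 393, -0.65), near the background of 4.51%. Of 114 chromatin regulators 2 (1.75%) had a selected window, the Polycomb gene Pcgf2 (427 and 224 reads, -0.93) and the remodeller Smarca5 (589 and 382, -0.62). Of 205 genes with a symbol of the solute carrier family 7 (3.41%) did, Slc9a3r2 among them. The cell cycle list had 5 of 60 (8.33%). Ccnd3, a D-type cyclin, had 508 and 261 reads (-0.96) in a window with 1 CpG, and the CDK inhibitor Cdkn1b had 697 and 418 (-0.74). The phosphatase Cdc25b had 637 and 389 (-0.71), Ccnd2 was the fourth, and Trp53 shared the window of Wrap53, which points the other way (773 and 487, -0.67).

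**Figure D3:**
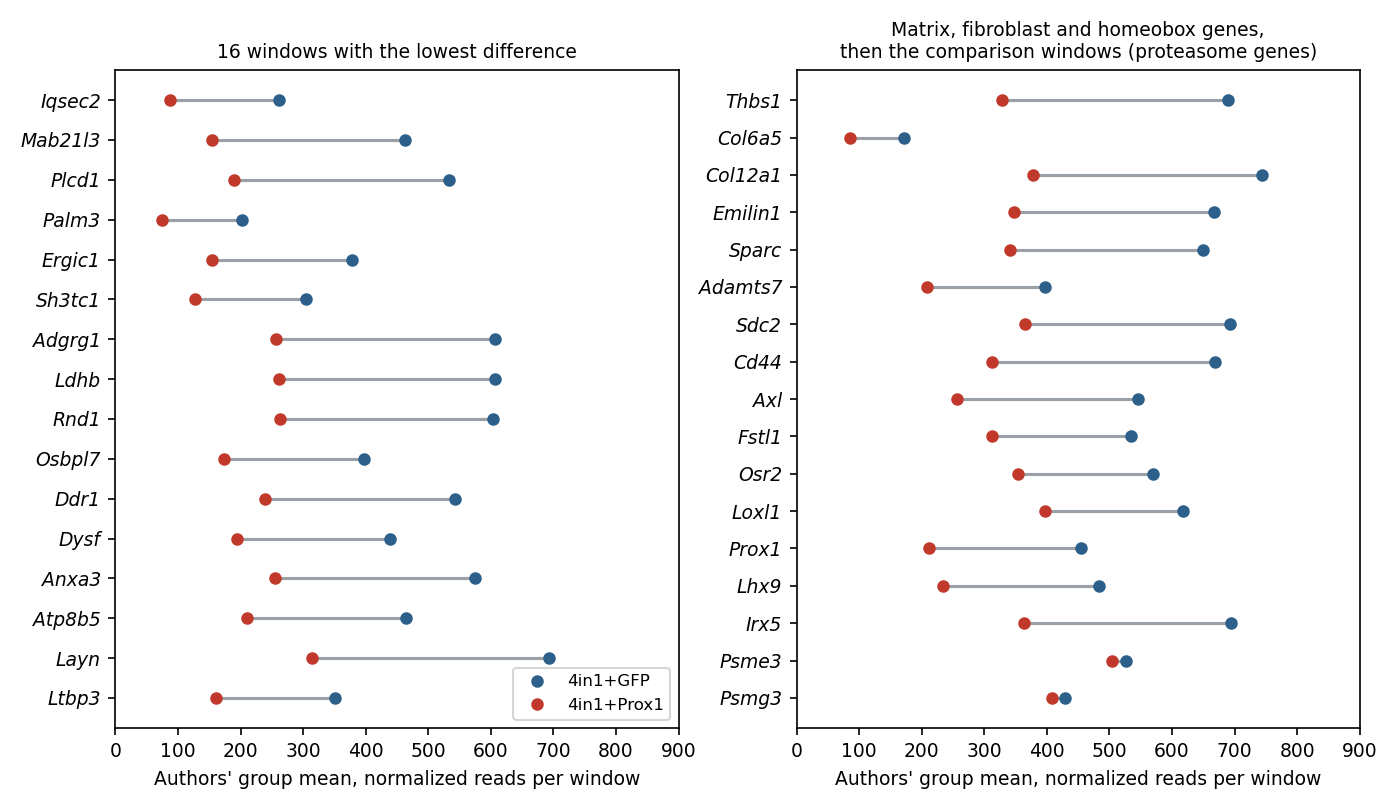
Authors' group means in normalized reads per window (x axes) with 4in1 and GFP (blue) and with 4in1 and Prox1 (red), joined by a grey line, for the 16 selected windows with the lowest difference (left) and for selected windows of matrix, fibroblast and homeobox genes (right). The comparison windows at Psme3 and Psmg3, at the foot of the right panel, differ by 23 and 21 reads.

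**Figure D4:**
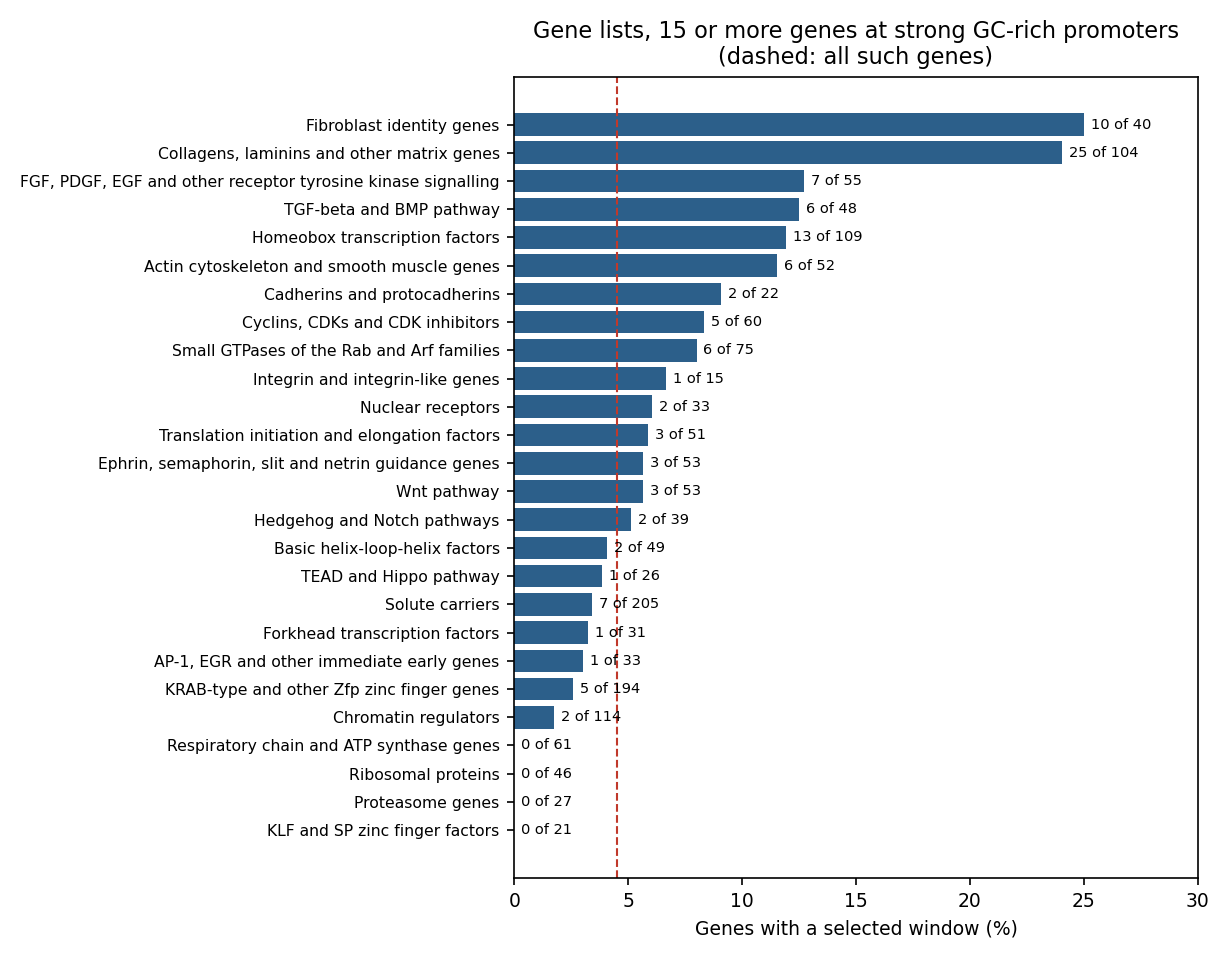
Share of the genes with a strong GC-rich promoter window that had a selected window (x axis, percent), for lists with 15 or more such genes, with counts at the bars. The dashed line is the share over all 10673 genes, 4.51%. Fibroblast identity (25.0%) and matrix genes (25 of 104) stand at the top and the ribosomal, respiratory, proteasome and KLF and SP lists at 0.

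The smaller lists are given by their counts, read against the same 4.51%. Genes with symbols of the Rab and Arf GTPases of vesicle traffic, Arl14ep among them, had 6 of 75 (8.00%). Rab38 (407 and 233 reads, -0.80) and Rab13 (459 and 268, -0.77) were lowest. The Wnt list had 3 of 53 (5.66%). These were Prickle2 of the planar polarity branch (428 and 199, -1.10), the agonist Rspo2 (438 and 235, -0.90) and the inhibitor Dkk2 (209 and 118, -0.82). The axon guidance list also had 3 of 53, namely Sema4c (-0.91), Ephb3 (-0.86) and Unc5c (-0.77). Hedgehog and Notch had 2 of 39, the receptor Notch4 (249.7 and 122, -1.03) and the transcription factor Gli2 (598 and 385, -0.63). The nuclear receptors had 2 of 33, Esr1 (209.6 and 113, -0.89) and Rarg (632 and 408, -0.63). The immediate early genes had 1 of 33, Fosl2, and the Hippo list 1 of 26, the YAP partner Wwtr1, also called TAZ (846 and 535, -0.66). Cadherins had 2 of 22 and integrin and integrin-like genes 1 of 15 (Itgbl1, 186 and 91.8, -1.02). Among marker lists of other cell types, Flt1 of endothelium, Snap25 of neurons (151 and 73.1, -1.04) and Krt8 of epithelia (226 and 133, -0.76) had a selected window. The most accessible promoter window of Snap25 was another one, with 344 and 303 reads (-0.19). The epithelial genes Epcam (194 and 389, 1.00) and Krt18 (134 and 223, 0.74) were higher with Prox1.

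The selected windows were unevenly spread over chromosomes in 1 respect. On the X chromosome, 32 of 276 strong GC-rich promoter windows (11.6%) were selected, while on the 19 autosomes the share ran from 2.50% to 5.69%, 4.31% in all. The X also had the lowest median difference of its strong GC-rich promoter windows (-0.26, against -0.21 to -0.17 on the autosomes) and of all its windows (-0.59, against -0.52 to -0.31). Among windows with a CpG ratio of 0.6 or more the share was 7.66% on the X and 3.01% on the autosomes. Besides Iqsec2 and Diaph2, the X-linked members included Timp1, Bgn, a matrix proteoglycan, and Flna, the actin crosslinker filamin A. The sex of the embryos was not given in the sources used here, and its part in this difference was not tested.

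Each 201-base window was searched for short motifs in either orientation. A match means only that the letters are present. Before any matching, the largest difference was for the core of the cAMP response element (CRE), TGACG. It was found in 15.8% of the selected windows, 27.2% of the other strong GC-rich promoter windows and 22.6% of all windows within 1 kb of a protein-coding start site. The pair of selected windows with the lowest differences among those holding it, at Adgrg1 and at Layn, a hyaluronan receptor, are printed with the core in capitals on either strand (or its reverse complement CGTCA).
Adgrg1, chr8:94984243-94984443, strand +: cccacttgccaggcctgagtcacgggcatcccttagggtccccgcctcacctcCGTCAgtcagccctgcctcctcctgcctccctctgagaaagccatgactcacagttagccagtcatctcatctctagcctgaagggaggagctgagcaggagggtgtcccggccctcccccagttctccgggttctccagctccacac
Layn, chr9:51077041-51077241, strand -: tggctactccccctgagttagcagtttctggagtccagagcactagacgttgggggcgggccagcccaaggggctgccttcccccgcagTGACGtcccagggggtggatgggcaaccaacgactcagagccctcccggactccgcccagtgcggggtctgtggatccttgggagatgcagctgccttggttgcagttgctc
Other elements typical of CpG-island promoters were also less frequent in the selected windows. The GC box GGGGCGGGG bound by SP and KLF factors was in 14.6% against 23.9% of the others, the ETS site CCGGAAG in 6.00% against 14.6%, and the CCAAT box of NF-Y in 84 of the 467 against 25.5%. The E-box CACGTG of MYC-type factors was in 3.43% against 8.27%, the NRF1 core GCGCATG in 1.28% against 5.66% and the E2F site TTCCCGC in 3.64% against 7.45%. Over all promoter windows these 6 motifs were in 16.2%, 11.5%, 27.3%, 6.86%, 4.41% and 5.61%. All but the CCAAT box contain CpG. Against other windows of the same CpG ratio and read class, the ETS site was in 10.7%, the GC box in 20.7% and the CRE core in 20.0%. Against other windows of the same GC content and read class, the GC box was in 17.5%, so that its gap was -2.95 percentage points in place of -9.35, while the CRE core was in 26.9%. The CCAAT box was in 25.0% of the others matched by CpG ratio and in 26.4% of those matched by GC content, both near its share before matching.

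The E-box CAGCTG, bound by factors of the MyoD type among others, was more frequent in the selected windows, at 16.7% against 11.4% (13.0% of all promoter windows), as were the TEAD site GGAATG at 9.21% against 5.82% (8.58%) and the AP-1 site TGANTCA at 4.28% against 2.29% (6.56%). The window of Sh3tc1 printed above holds the letters of both the AP-1 and the TEAD site. In other windows of the same CpG ratio and read class these shares were 16.3%, 7.89% and 4.33%, so the AP-1 and CAGCTG shares were nearly the same as in windows of like composition. The Prox1 core AAGNCG was in 33.8% of the selected windows, 32.2% of the others and 28.0% of all promoter windows, and in 27.1% of the others of like CpG ratio and read class. It was in the windows of Prox1, Iqsec2, Axl and Myc, and in neither of those at Cd44 and Thbs1.

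**Figure D5:**
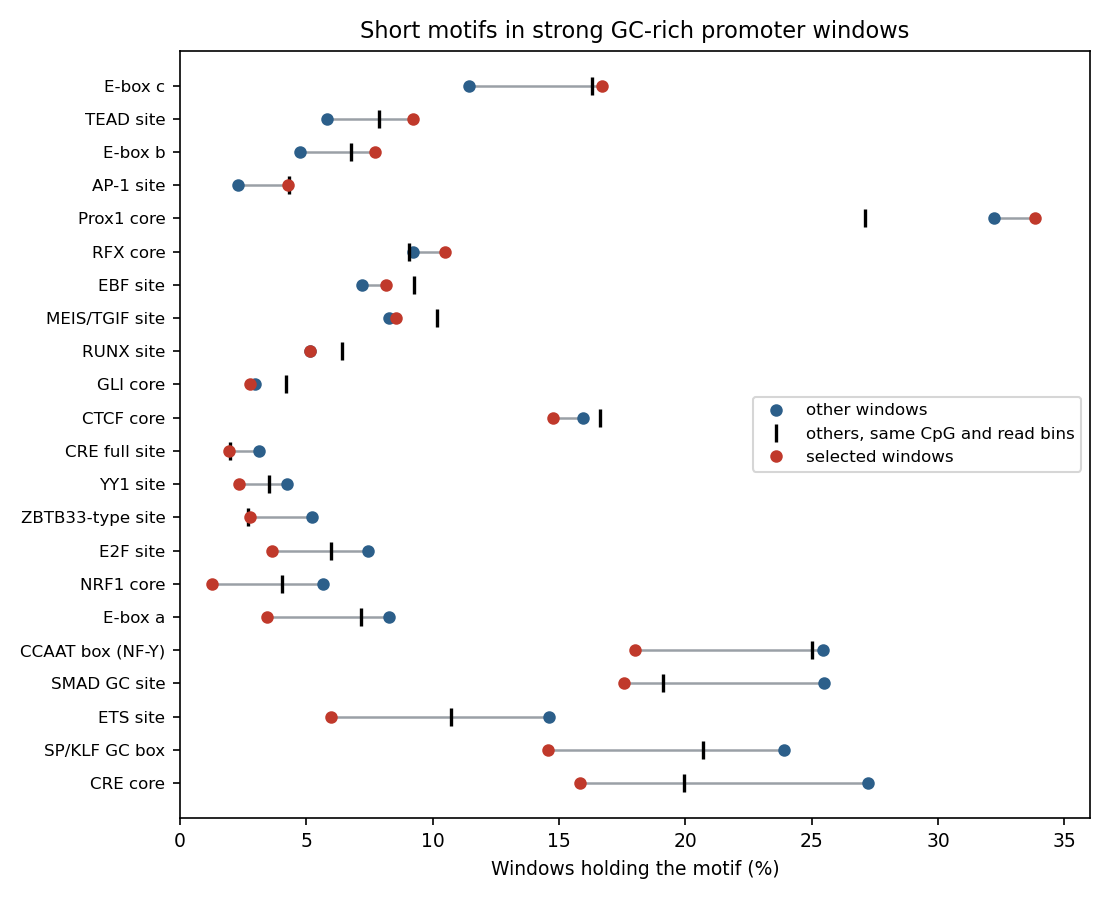
Share of windows that hold each short motif (x axis, percent) in the 467 selected windows (red), in the other 9913 strong GC-rich promoter windows (blue) and in those others within the same classes of CpG ratio and log2 reads (black tick), for motifs in at least 2% of the others. E-box a is CACGTG, the one labelled b reads CATCTG, and the third, labelled c, is CAGCTG. The CRE core, at the foot, has the widest gap, 15.8% against 27.2%, and its tick stands at 20.0%.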

How the data were processed

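ATAC-seq libraries of MEFs were made at day 2, 3 per group. Per the study's methods and the submitters' processing notes, the authors used Trimmomatic 0.38 for trimming and Bowtie2 2.3.4.3 for alignment against mm10, recalibrated for Tn5 insertion bias, called peaks with MACS2 2.1.2 (the reporting summary names another caller) and counted reads in consensus windows with DiffBind 3.4.11. The deposited log2 values are each group's mean normalized reads per window. The normalization setting and the depth per library were not given in the sources used here, so no counting error is attached to single windows. The table also holds the authors' fold change, p-value and false discovery rate, and 2 interval files hold the windows the authors called. None of these was used, and there were 0 further columns of per-sample values.

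Differences are the Prox1 value minus the GFP value, and reads are 2 to the power of the log2 value. Start sites were those of protein-coding transcripts in the GENCODE M21 basic set, with distances taken from the nearest window edge. Sequence, GC and CpG came from GRCm38.p6, the same assembly as mm10. Python 3.11.15 with pandas 2.3.3 was used, and the member rule was checked on simulated data. Motif shares were also computed within classes of GC or CpG ratio and reads. Named genes were the 12 lowest windows, the 6 with most reads, the 6 genes with more than 1 window (tied), those beside each limit, and up to 4 lowest and 3 highest per list, each gene by its lowest window. Prox1's windows and some list members near the limit were added after their values were seen. Members, lists and motifs were chosen with earlier results of these data known. No test was made, because replicate values were not at hand and the selection used the same difference. A few genes and 1 list are not reported here. Alternative limits, centring and annotations were tried.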

Additional observations from a re-analysis of the deposited data

How the results depend on the processing

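No paired analysis was possible because the deposited values are group means, and for the same reason no replicate could be left out. Of 31 recomputations of the main values, 15 stayed close to them. The 467 windows became 824 (6.75% of the strong GC-rich promoter windows) with GC at least 55% and 242 (3.09%) with 65%. They became 762 (7.34%) at a limit of -0.5 and 160 (1.54%) at -0.8, by the construction of these limits. Relative to the median difference of all windows (-0.42), or with equal totals over all windows (-0.41), 45 windows (0.43%) passed. The share of genes was 7.27% at -0.5 and 1.55% at -0.8, where the fibroblast list had 7.50%, the matrix list 9.62%, the actin list 3.85%, the homeobox list 3.67%, the receptor tyrosine kinase list 3.64% and the TGF-beta list 2.08%. The gap in CRE core share, -11.4 percentage points, was -15.1 at a limit of -0.8, and -4.12 within the same classes of CpG ratio and reads, an alternative chosen after seeing the data. Within those classes the AP-1 gap of 1.99 points turned to -0.047, and at -0.8 the Prox1 core gap of 1.61 turned to -1.69. For these motif gaps the cause was not tested. Other distances to the start site, read limits and annotations gave 440 to 512 windows. On autosomes alone, 4.31% were selected. Without replicate values or depth, windows near -0.6 cannot be separated from those just outside.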
